A study of Mus musculus with 2 samples.

Results

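The genes described here are the variable (V) segment genes of the mouse immunoglobulin light chains, whose symbols begin with Igkv or Iglv, that had at least 20 unique molecular identifiers (UMIs, each standing for 1 captured transcript) summed over 2 single-cell libraries. Of 163 such rows among 55357 genes, 55 met the limit: 52 Igkv genes of 16 families and 3 Iglv genes. They held 11950 of the 12253 UMIs of all 163 rows, and 53 rows had no UMI. The rows just outside the limit were Igkv5-39 with 18 UMIs and Igkv4-59 with 15, and those just inside were Igkv3-10 with 22, Igkv4-51 with 25 and Igkv4-57-1 with 25.

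The libraries came from dissociated livers of mice with fibrosis induced by CCl4 (carbon tetrachloride, a liver toxin). The CCl4 library is the control, and the CCl4+IPA library came from mice that also received IPA (indole propionic acid, a tryptophan metabolite made by gut bacteria). Strain, age, sex, dose, timing and the number of animals behind each library are not given in the sources used here, and both groups carry CCl4 injury. Each group had 1 library, so every comparison below is between 2 libraries and not between treatments, no test was run, and intervals are exact 95% intervals that cover counting error only. Where 2 values are given together, the first is of the CCl4 library and the second of the CCl4+IPA library.

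Each B cell clone assembles a light chain by joining a V segment to a joining (J) segment, and the product is spliced to a constant region. Kappa chains use Igkv segments with the constant gene Igkc, and lambda chains use Iglv segments with Iglc1, Iglc2 or Iglc3. Most mouse B cells express kappa, and a cell normally expresses 1 productive light chain. A descendant of that cell that becomes an antibody-secreting plasma cell keeps the same V segment and makes far more of its transcript. These libraries were made with chemistry that reads the 3′ end of transcripts, which lies in the constant region, so most light chain molecules are seen through Igkc or Iglc and few through the V segment.

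The ends of the V segments show which members the counting could confuse. The last 60 bases of the GENCODE M21 transcripts (build GRCm38, kappa on chromosome 6 and lambda on chromosome 16) are given in the direction of transcription for the lambda members and for the kappa members that led most cells or accompanied a leading gene below. Capitals mark the bases from the codon of the conserved cysteine to the end of the segment, the part that enters the antigen-binding loop.
Iglv1: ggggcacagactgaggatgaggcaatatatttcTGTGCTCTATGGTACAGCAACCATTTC
Iglv2: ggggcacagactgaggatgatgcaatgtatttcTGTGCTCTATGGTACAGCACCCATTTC
Iglv3: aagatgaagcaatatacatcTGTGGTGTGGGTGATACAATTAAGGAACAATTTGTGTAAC
Igkv1-110: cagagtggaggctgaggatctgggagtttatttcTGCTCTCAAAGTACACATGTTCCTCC
Igkv1-117: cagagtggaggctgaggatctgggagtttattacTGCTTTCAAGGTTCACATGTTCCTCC
Igkv10-96: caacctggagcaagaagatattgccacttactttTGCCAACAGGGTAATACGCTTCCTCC
Igkv8-30: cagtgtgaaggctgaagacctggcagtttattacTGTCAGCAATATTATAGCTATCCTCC
Igkv3-2: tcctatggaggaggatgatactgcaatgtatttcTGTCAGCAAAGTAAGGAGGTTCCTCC
Igkv6-15: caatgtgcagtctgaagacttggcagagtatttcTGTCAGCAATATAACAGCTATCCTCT

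Igkv1-110 and Igkv1-117 were 96.8% identical over the whole transcript and shared a stretch of 142 bases. Counted from 1 at the first printed base, their ends differed by T33A, C39T, A44G and A47T, with the Igkv1-110 base first. Iglv1 and Iglv2 were 90.8% identical, and their ends differed by G21T, A27G and A53C, with the Iglv1 base first. Iglv3 stood apart, at 57.2% identity with Iglv1 and 60.2% with Iglv2. Of the 55 members, 22 held no 90-base stretch found in another of the 163 rows. By that measure 2 were under 50% unique, Igkv3-11 at 35.8% and Igkv6-20 at 42.7%. Igkv3-11 is also the 1 member annotated as a pseudogene. Closer pairs among the other members were Igkv17-127 with Igkv17-121 at 97.5%, Igkv3-12 with Igkv3-7 at 96.7% and Igkv9-124 with Igkv9-120 at 95.2%. Values of such pairs are uncertain to the extent that reads were split between them.

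After filtering, 10016 and 10128 cells were analysed, and the deposited barcodes had a median of 3172 and 2771 UMIs. The libraries shared 23 barcodes, 20 of them among analysed cells. B cells were taken as cells with at least 3 UMIs of Cd79a, Cd79b (the signalling chains of the B cell receptor) and Ms4a1 (CD20) together, and plasma cells as cells with at least 5 UMIs of Jchain (the chain that joins IgA and IgM units) and at least 1 of Mzb1 (a chaperone of immunoglobulin assembly). This gave 3953 and 3305 B cells and 29 and 10 plasma cells, with cells that met both rules counted as plasma cells. Mzb1 had only 79 and 31 UMIs in the whole libraries, so 48 and 50 cells with at least 5 Jchain UMIs but no Mzb1 UMI stayed among the B cells. Their median Jchain count was 449.5 and 505 UMIs, and they held 3914 of the 5376 and 2677 of the 3228 V UMIs of the B cells.

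Results are therefore given for the B cells by the rule and also for a split made after the data were seen. Jchain-low B cells, 3905 and 3255 in number, have under 5 Jchain UMIs. Jchain-rich cells, 77 and 60, are the plasma cells together with those Jchain-high cells of the B cell rule. Of them, 5 and 3 had under 20 Jchain UMIs. A further 8 and 12 analysed cells had at least 5 Jchain UMIs but met neither rule, and they are in neither class. The summed level of 10 plasma cell markers was 4664 and 5506 UMIs per 1e+06 UMIs (CPM) in Jchain-rich cells against 373.3 and 463.6 in Jchain-low B cells. The summed level of 11 B cell markers was 18756 and 21861 CPM in Jchain-low B cells against 2634 and 2965 in Jchain-rich cells. As sums over their cells, both classes therefore carried the markers their names imply. Markers of other cells were found in Jchain-low B cells as well. Of these, 4 neutrophil markers summed to 2089 and 1783 CPM, and 4 mononuclear phagocyte markers to 278.2 and 292.2 CPM. S100a8, a neutrophil marker, was found in 21.2% and 19.5% of these B cells and in 20.1% and 22.8% of T cells. The 7 T cell markers summed to 175.9 and 128.3 CPM, and 4 NK cell markers to 81.4 and 119.1 CPM. The 3 hepatocyte markers, all lower in the CCl4+IPA library, summed to 72.4 and 19.7 CPM. Their part in the V gene values was not tested.

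Light chain V UMIs were found in B cells of both libraries and were less frequent in the CCl4+IPA library. At least 1 was held by 1086 of 3905 Jchain-low B cells, 27.8% (26.4 to 29.2), in the CCl4 library, against 467 of 3255, 14.3% (13.2 to 15.6). Over B cells by the rule the shares were 28.7% and 15.6%. T cells, which do not express these genes, gave 0.898% and 0.577%, at a median of 4078.5 and 3360 UMIs per cell, deeper than the 2808 and 2378 of Jchain-low B cells. These T cells were chosen to hold no UMI of Cd79a, Cd79b, Ms4a1 or Jchain. Analysed cells outside the B, plasma and T cell classes gave 2.42% of 3918 and 1.14% of 4388. They include the 8 and 12 cells with at least 5 Jchain UMIs that met neither rule. The B cell shares were far above both backgrounds.

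The difference between the libraries remained after each cell was thinned to 1000 UMIs, which sets all cells to 1 depth. V UMIs were then found in 11.0% (10.1 to 12.1) of 3867 and 5.74% (4.95 to 6.60) of 3190 Jchain-low B cells, with 38 and 65 shallower cells left out. By the rule the thinned shares were 12.0% (11.0 to 13.1) and 6.79% (5.95 to 7.71). In T cells they were 0.0948% and 0.0832%.

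Summed over members, V UMIs stood at 114.6 CPM (108.8 to 120.6) and 62.5 CPM (57.4 to 68.0) in Jchain-low B cells, a ratio of 0.546 (0.494 to 0.602). Igkc, the constant gene read from the same transcripts, had a ratio of 1.00 (0.993 to 1.02). Per 1000 light chain constant UMIs, V UMIs numbered 13.3 and 7.44, a ratio of 0.558 (0.505 to 0.615). Over B cells by the rule the ratio of V levels was 0.849 (0.813 to 0.887), and per light chain constant UMI it was 0.587 (0.561 to 0.613).

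Ratios below 1 were also found for the V segments of the heavy chain and of the T cell receptor. Heavy chain V segments (Ighv) per heavy chain constant UMI had a ratio of 0.513 (0.461 to 0.571) in Jchain-low B cells and 0.436 (0.404 to 0.470) in Jchain-rich cells. Light chain V segments per constant UMI had a ratio of 0.629 (0.602 to 0.656) in Jchain-rich cells. T cell receptor V segments per receptor constant UMI had a ratio of 0.630 (0.572 to 0.695) in T cells. In plasma cells by the rule the light chain ratio was 0.885 (0.803 to 0.974). V UMIs per constant UMI were thus lower in the CCl4+IPA library in B cells, Jchain-rich cells and T cells alike. The median share of mitochondrial UMIs differed too, at 3.53% and 1.78% of the UMIs of deposited barcodes. The part of these library differences in the lower V levels of any member was not tested.

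**Figure D1:**
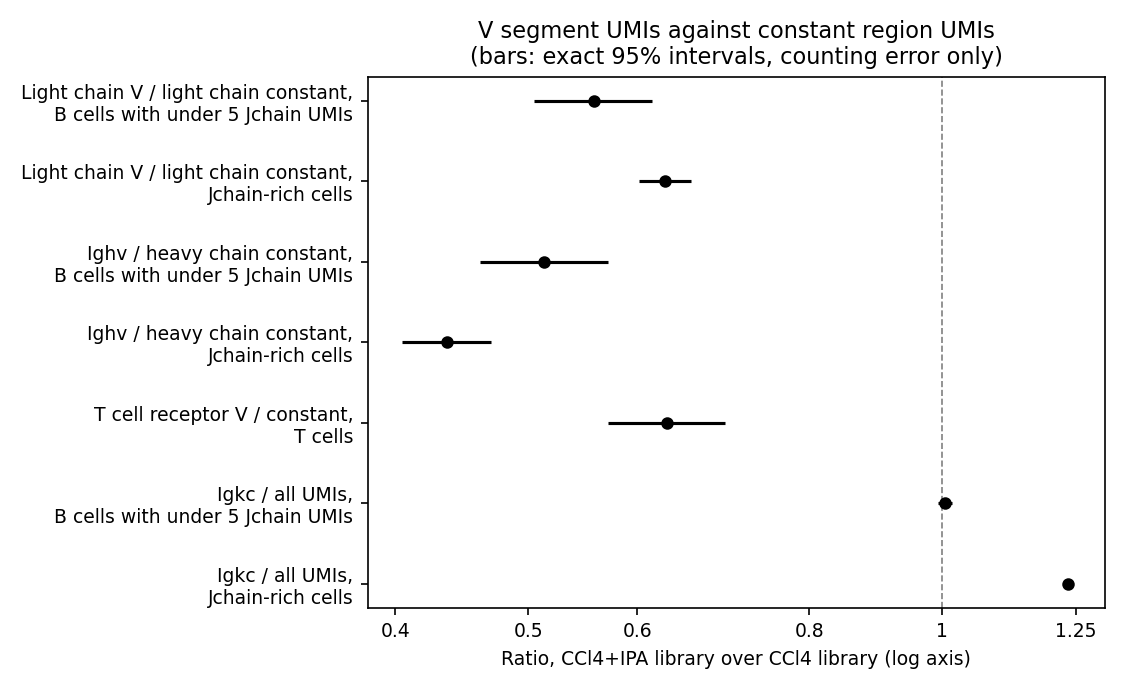
Ratio of the CCl4+IPA library to the CCl4 library (log axis) for V segment UMIs per constant region UMI in light chains, heavy chains and T cell receptors, and for Igkc per all UMIs. Points are ratios and bars exact 95% intervals for counting error. All 5 V-to-constant ratios lie between 0.436 and 0.630, while Igkc lies at 1.00 in Jchain-low B cells and 1.23 in Jchain-rich cells.

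Member by member, the share of Jchain-low B cells with a UMI was lower in the CCl4+IPA library for 53 of 55 members, against 51% of all 18323 genes with at least 20 UMIs. In level, 11 members had at least 50 UMIs over these cells, and 8 of them were at least 1.5-fold lower in the CCl4+IPA library, where 2.79% of all 11357 genes so measured were. None was at least 1.5-fold higher, against 13.2% of all genes. The median log2 ratio was −0.90 over these 11 members and 0.25 over all genes measured. Most UMIs of these members came from the CCl4 library, so a limit on the sum is reached more easily by members that are high there. By the B cell rule further members reached the limit through single Jchain-rich cells, such as Igkv16-104 with 417 of its 496 UMIs in 1 cell, and their calls are not counted here. The 2 members seen in a higher share of Jchain-low B cells of the CCl4+IPA library, Igkv4-61 (1 and 2 cells) and Igkv3-11 (0 and 1), rest on single cells. The 3 measured members that were not 1.5-fold lower were Iglv3 at a ratio of 0.87, Igkv19-93 at 0.78 and Igkv12-46 at 0.74.

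Relative use was then compared among Jchain-low B cells with any V UMI. Across the 55 members the numbers of Jchain-low B cells with a UMI in the 2 libraries had a Spearman correlation of 0.88, a description over genes that share the same libraries. The ratio of use, the share of V-positive cells with the gene in the CCl4+IPA library over that in the CCl4 library, had a median of 0.93. Among the 11 members with at least 40 such cells over both libraries it ran from 0.60 for Igkv17-127 to 1.40 for Iglv3. For 1 of the 11, or 9.09%, the interval excluded 1, near the 9.03% of 8381 genes measured the same way. That count therefore does not set these members apart from other genes. An interval that includes 1 does not show equal use, and the remaining members had too few cells to be weighed.

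Iglv3 was the member seen in most Jchain-low B cells of both libraries, 151 and 91, or 3.87% (3.28 to 4.52) and 2.80% (2.26 to 3.42). It made up 13.9% and 19.5% of V-positive cells, and its use ratio of 1.40 (1.07 to 1.83) was the one whose interval excluded 1. Iglv1 followed in the CCl4 library with 98 and 35 cells, 2.51% (2.04 to 3.05) and 1.08% (0.750 to 1.49), and a use ratio of 0.83 (0.548 to 1.23). Iglv2, the third lambda member, was rare, with 16 and 3 cells. In T cells Iglv1 was seen in 4 and 2 cells, Iglv2 in 0 and 1 and Iglv3 in 1 and 0.

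Among kappa members Igkv1-117 was seen in most Jchain-low B cells of both libraries, 82 and 27, or 2.10% (1.67 to 2.60) and 0.829% (0.547 to 1.20). Next came Igkv10-96 with 59 and 23 cells, Igkv1-135 with 56 and 26, Igkv12-44 with 55 and 25, and Igkv12-46 with 43 and 23. Igkv1-110 and Igkv17-127 each had 39 cells in the CCl4 library, with 19 and 10 in the CCl4+IPA library. Neighbours in this order had intervals that overlapped. The median member was seen in 16 and 6 of these cells, 1 member was seen in no cell of the CCl4 library and 5 in none of the CCl4+IPA library.

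**Figure D2:**
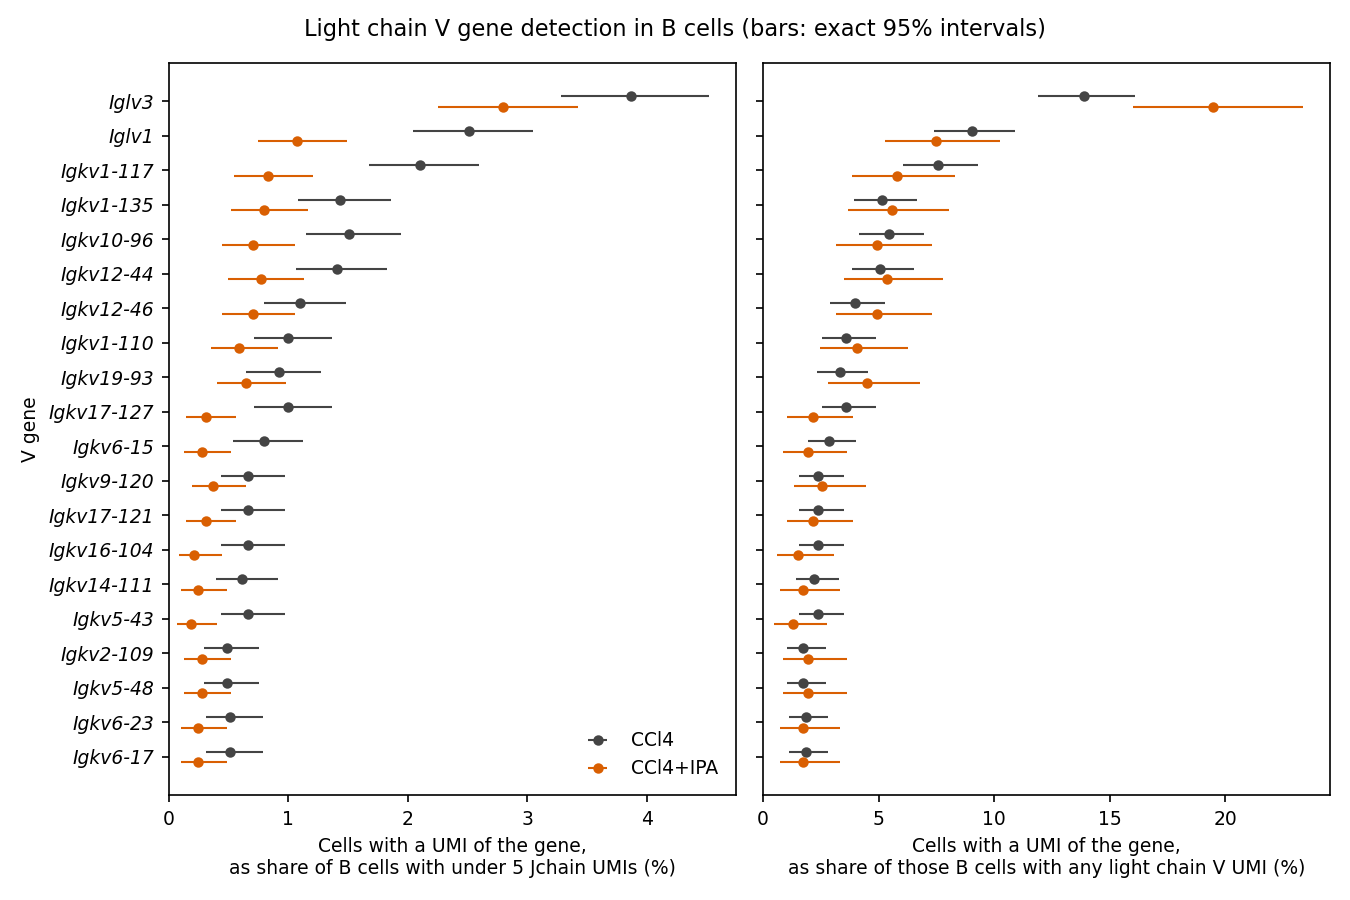
The 20 members seen in most Jchain-low B cells, as the share of all such cells (left) and of those with any light chain V UMI (right), in the CCl4 library (grey) and the CCl4+IPA library (orange). Points are shares in percent and bars exact 95% intervals. On the left every member shown is lower in the CCl4+IPA library; on the right the libraries overlap for most members, and Iglv3 is at 13.9% and 19.5%.

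By family, the 3 Iglv members together were seen in 23.6% (21.1 to 26.2) and 27.6% (23.6 to 31.9) of V-positive Jchain-low B cells. The 4 Igkv1 members were in 16.6% and 15.4%, the 8 Igkv6 members in 11.0% and 9.64%, the 4 Igkv12 members in 10.6% and 11.1%, and the 8 Igkv3 members in 7.64% and 8.35%. Over the 17 family groups, Iglv included, every ratio between the libraries had an interval that included 1. Part of the kappa locus lies in the inverted orientation to the constant gene, so that its segments join by inversion. The 29 inverted members had a median of 14 and 4 Jchain-low B cells, and the 23 members in the orientation of the constant gene 17 and 7.

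Assigning 1 leading gene to a cell, with at least 2 UMIs and at least 66.7% of its V UMIs, used few cells. By the B cell rule 221 of 3953 and 65 of 3305 cells could be assigned. The 15 members leading most of them were Igkv1-110 (18 and 4 cells), Igkv1-117 (20 and 1), Igkv12-46 (14 and 5), Igkv10-96 (15 and 3), Igkv12-44 (15 and 3), Iglv1 (11 and 6), Igkv1-135 (10 and 4), Iglv3 (8 and 5), Igkv16-104 (8 and 1), Igkv6-23 (6 and 3), Igkv6-15 (6 and 2), Igkv17-127 (6 and 1), Igkv9-120 (6 and 1), Igkv5-43 (6 and 1) and Igkv3-2 (2 and 5). All 5 Igkv3-2 cells of the CCl4+IPA library were Jchain-rich. No member reached 40 assigned cells, the highest being 22, so ratios between libraries are not ranked. The first 5 of these members held 37.1% (30.7 to 43.8) and 24.6% (14.8 to 36.9) of assigned cells. They were ranked over both libraries, and 221 of the assigned cells came from the CCl4 library, so the choice favours that library and the lower share in the other shows no difference in concentration. The inverse Simpson number, the number of equally used genes that would give the same concentration, was 23.2 and 20.0. It depends on how many cells are counted, here 221 and 65, so the lower value does not show narrower use.

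An Iglv gene led 9.50% (5.98 to 14.2) of 221 and 18.5% (9.92 to 30.0) of 65 assigned B cells, with intervals that overlap. This is no direct measure of lambda use: of the 6 Iglv1-led cells of the CCl4+IPA library, 4 were Jchain-rich cells whose constant UMIs were mostly Igkc. Without Jchain-rich cells the shares were 9.95% (6.10 to 15.1) of 191 and 17.9% (7.54 to 33.5) of 39. When 5 UMIs and 90% were required, the order of the libraries turned, at 5.88% of 17 and 0 of 7 cells. The constant genes, which are counted far more deeply, gave another view of kappa and lambda. Iglc1 to Iglc4 made up most of the light chain constant UMIs in 13.5% (12.5 to 14.6) of 3897 and 11.4% (10.3 to 12.6) of 3195 B cells by the rule, over cells with at least 5 such UMIs. They made up over 80% in 4.70% (4.05 to 5.41) and 4.01% (3.35 to 4.75). Iglc UMIs were widespread: Iglc2 was detected in 90.5% and 84.9% of Jchain-low B cells and in 2.32% and 5.90% of T cells, and most of these B cells held more Igkc.

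Detection of V segments was then set against the constant region. Among Jchain-low B cells of the CCl4 library, Iglv1 was seen in 16.5% (11.4 to 22.7) of the 182 cells with over 80% Iglc and in 1.75% (1.33 to 2.25) of the 3323 cells with 50% or less. The corresponding shares of the other library were 4.76% (1.77 to 10.1) of 126 cells and 0.826% (0.525 to 1.24) of 2783. Iglv2 was in 10 and 3 of the high-Iglc cells and in 3 and 0 of the others. Any Igkv gene was seen in 3.30% (1.22 to 7.04) of high-Iglc cells against 24.9% (23.5 to 26.5) of the others in the CCl4 library. In the CCl4+IPA library these shares were 7.14% (3.32 to 13.1) and 12.1% (10.9 to 13.3), with intervals that overlap.

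Iglv3 was seen in 7.69% (4.27 to 12.6) and 7.14% (3.32 to 13.1) of high-Iglc cells and also in 3.55% (2.95 to 4.24) and 2.59% (2.03 to 3.25) of cells with 50% Iglc or less. Cells with 50% Iglc or less made up most Jchain-low B cells with an Iglv3 UMI, 118 of 151 and 72 of 91, and also most of those with an Iglv1 UMI, 58 of 98 and 23 of 35. In high-Iglc cells that held Iglv1, Iglc1 gave 41.6% (30 cells) and 75.7% (6 cells) of Iglc UMIs. In those that held Iglv3, Iglc2 gave 58.3% (14 cells) and 70.9% (9 cells), and in those that held Iglv2, 68.4% (10 cells) and 70.0% (3 cells).

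B cells divided by Fcer2a (CD23, a marker of follicular B cells) were compared next. After thinning, V UMIs were found in 11.4% of 2804 and 5.49% of 2094 B cells with at least 1 Fcer2a UMI. In cells with no Fcer2a UMI and a UMI of Cd9, Bhlhe41 or Zbtb32, genes of innate-like B cells, the shares were 30.6% of 121 and 20.9% of 115, but these cells include Jchain-rich ones. Without them the shares were 9.78% (4.57 to 17.8) of 92 and 2.30% (0.280 to 8.06) of 87, and those of Fcer2a-positive cells were 11.3% and 5.41%. Lambda cells, with over 80% Iglc, made up 4.59% and 3.73% of Fcer2a-positive Jchain-low cells and 6.74% (2.51 to 14.1) and 7.32% (2.73 to 15.3) of the innate-like set. These sets have few cells, and the intervals overlap.

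Plasma cells by the rule, 29 and 10, held 2412 and 509 V UMIs, or 4060 CPM (3900 to 4226) and 3001 CPM (2746 to 3273). Over the 10 members with most V UMIs in them, Iglv1 led with 807 (33.5%) and 271 (53.2%) UMIs. It had the most UMIs of any member in both libraries, but 518 of the 807 came from 1 cell, and 176 of the 271 from another. Without the cell with most V UMIs of each library the shares were 15.4% and 31.4%, and with each cell counted once 14.3% and 10.0%. Igkv1-110 had 339 UMIs in 4 cells and 5 in 1 cell, Igkv10-96 had 234 in 6 cells and none in the CCl4+IPA library, and Igkv12-98 had 146 in 2 cells and 7 in 1 cell. Igkv5-43 (140 UMIs), Igkv1-88 (138), Igkv6-15 (90), Igkv3-2 (65) and Igkv3-7 (63) were found in plasma cells of the CCl4 library only, in 1 to 3 cells each. Igkv15-103 was found in 2 cells of the CCl4+IPA library with 61 UMIs and in no plasma cell of the other. No count of members past 1.5-fold is given, since most members with enough UMIs reached them through 1 or a few cells of the library with more plasma cells. The values of the CCl4+IPA library here rest on 10 cells.

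The wider set of Jchain-rich cells was 77 of 10016 and 60 of 10128 analysed cells. It held 78.2% and 82.5% of the V UMIs of all deposited barcodes. V UMIs were at 4398 CPM (4291 to 4508) and 3272 CPM (3159 to 3388). A cell held a median of 60 (0 to 578) and 34.5 (0 to 310) V UMIs, and 2 cells of each library held none. Those without a V UMI lay near the Jchain limit, with 8 and 5 Jchain UMIs in the CCl4 library and 7 and 6 in the other. The median Jchain count of the class was 456 and 447.5 UMIs. The 5 cells with most V UMIs gave 31.5% and 32.7% of the total. The highest, in the CCl4 library, carried 557 Igkv12-44 UMIs beside 11736 Igkc UMIs. Single cells set the level of many members here: Igkv16-104 had 464 UMIs in 2 cells of the CCl4 library and none in the other, and Igkv14-126 had 1 UMI in the CCl4 library and 76 in 1 cell of the other. Counts of members past 1.5-fold are therefore not given.

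A leading gene was then taken for each Jchain-rich cell within the locus of its own constant region, with at least 2 UMIs, a choice made after the data were seen. This gave 72 and 56 cells led by 33 and 32 different genes. In the CCl4 library Igkv1-110 led 11 cells, 15.3% (7.88 to 25.7), Igkv10-96 led 10, 13.9% (6.87 to 24.1), Igkv6-15 led 6 and Igkv6-23 led 4. In the CCl4+IPA library Igkv3-2 led 8 cells, 14.3% (6.38 to 26.2), against 1 cell in the CCl4 library. Igkv1-110 led 6 cells there, 10.7% (4.03 to 21.9), Igkv1-135 led 3 and Igkv10-96 led 2. Most genes led 1 or 2 cells in either library. The leading gene rule used above for B cells, over kappa and lambda V UMIs together, assigned 49 and 31 Jchain-rich cells. Across the 55 members the numbers of cells led by that rule had a Spearman correlation of 0.38 between libraries, a description with no test.

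**Figure D3:**
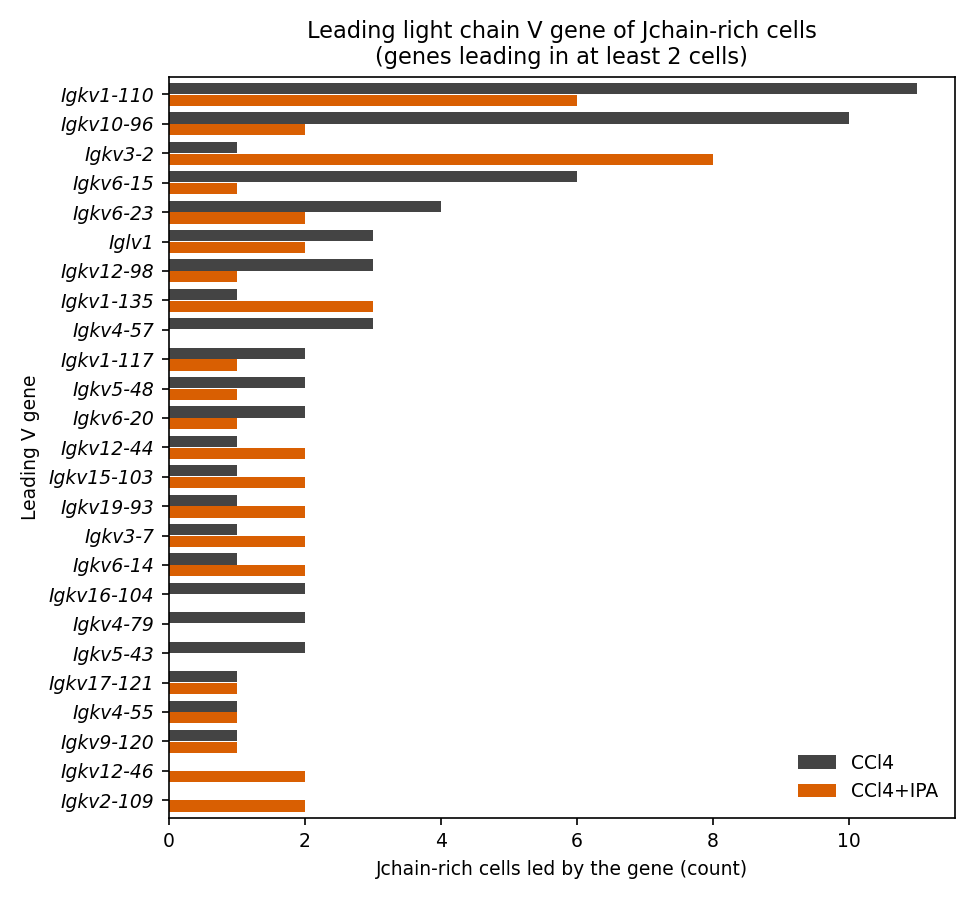
Number of Jchain-rich cells led by each light chain V gene, for the genes leading at least 2 cells over both libraries, in the CCl4 library (grey bars) and the CCl4+IPA library (orange bars). Igkv1-110 leads 11 and 6 cells, Igkv10-96 leads 10 and 2, and Igkv3-2 leads 1 and 8.

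Several of these cells paired the same light and heavy V genes. In the CCl4+IPA library, 5 of the 8 Igkv3-2 cells carried Ighv8-5 as their leading heavy chain V gene, and all 5 were Igha cells, with 25 to 42 Igkv3-2 UMIs each. Only 1 other Jchain-rich cell of that library carried Ighv8-5. In the CCl4 library, 4 of the 6 Igkv6-15 cells carried Ighv1-52, all of them Igha cells, and 1 cell with another light chain carried it. These 4 calls rest on 5, 4, 9 and 3 Ighv1-52 UMIs, where at least 3 were needed to name a heavy chain gene. Igkv1-110 was paired with Ighv9-3 in 3 cells and Igkv10-96 with Ighv1-82 in 3 cells, again all Igha. In that library Ighv9-3 was found in 6 Jchain-rich cells, 3 of them with another light chain. Ighv1-82 was found in 5, of which 2 had another light chain. The 3 Igkv4-57 cells all carried Ighv1-26, a heavy chain gene found in 10 Jchain-rich cells of that library, and 1 of the 3 was an Igha cell. Nucleotide sequences of the joined segments are not in counts per gene, so shared pairs do not show shared clones.

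IgA was the main heavy chain class of these cells. Igha was the leading constant gene in 56 of 77 and 49 of 60 Jchain-rich cells, an Ighg gene in 19 and 10, and Ighm in 0 and 1. Kappa constant UMIs exceeded lambda in 74 and 56 cells, and lambda exceeded kappa in 3 and 4, or 3.90% (0.811 to 11.0) and 6.67% (1.85 to 16.2). Of the 7 lambda cells, 5 were led by Iglv1, with 34 to 518 UMIs, 1 was led by Iglv2 with 26 UMIs, and 1 held no V UMI. This last cell, of the CCl4+IPA library, had 41 Iglc UMIs against 34 of Igkc, and 7 Jchain UMIs. Over 80% Iglc was reached by 3 cells of each library, 3.90% (0.811 to 11.0) and 5.00% (1.04 to 13.9).

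Cells with more than 1 V gene were the rule among Jchain-rich cells: the median cell showed 3 members, and up to 6. Igkv1-117 was seen in all 11 Igkv1-110-led cells of the CCl4 library and in 5 of 6 of the CCl4+IPA library, at 16.9 and 15.2 UMIs per 100 of Igkv1-110. The reverse was uneven. Igkv1-110 was seen in 1 of the 2 Igkv1-117-led cells of the CCl4 library, which together held 7 Igkv1-110 and 126 Igkv1-117 UMIs. The 1 Igkv1-117-led cell of the CCl4+IPA library held 7 and 8. Igkv8-30 was seen in each of the 3 cells that paired Igkv10-96 with Ighv1-82, with 7, 21 and 51 UMIs, and the transcripts of both genes are 64.6% identical.

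Iglv1, a lambda gene, was also widespread in kappa cells. It was seen in 60 of the 74 kappa Jchain-rich cells of the CCl4 library, 81.1% (70.3 to 89.3), and in 44 of 56 of the other, 78.6% (65.6 to 88.4). Kappa cells held 62.4% and 83.2% of its UMIs in Jchain-rich cells, 997 and 1119. A kappa cell held a median of 5 and 6 Iglv1 UMIs and up to 116 and 211, and in 8 and 12 kappa cells Iglv1 outnumbered every Igkv gene. In the cell with 116, Igkv6-15 had 83 UMIs, Igkc 6811 and all Iglc genes 13. In the cell with 211, Igkv12-44 had 79, Igkc 5351 and Iglc 48.

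These Iglv1 UMIs were not matched by lambda constant UMIs. Kappa Jchain-rich cells held 149.2 and 341.6 Iglv1 UMIs per 1000 Iglc UMIs, whereas lambda Jchain-rich cells held 20.8 and 13.9, and in 7 and 6 kappa cells Iglv1 exceeded Iglc. Per 1000 light chain constant UMIs of either kind, Iglv1 stood at 3.67 (3.45 to 3.91) and 4.99 (4.70 to 5.29) in kappa Jchain-rich cells, against 0.700 (0.542 to 0.889) and 0.365 (0.234 to 0.543) in Jchain-low B cells with 50% Iglc or less. The longest stretch that Iglv1 shares with any Igkv member was 12 bases, with Igkv3-1, and with Igkc 7 bases. The close relative Iglv2 was seen in 2 and 4 kappa Jchain-rich cells with 1 UMI each, and Iglv3 in 31 and 23 with at most 14 and 9.

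**Figure D4:**
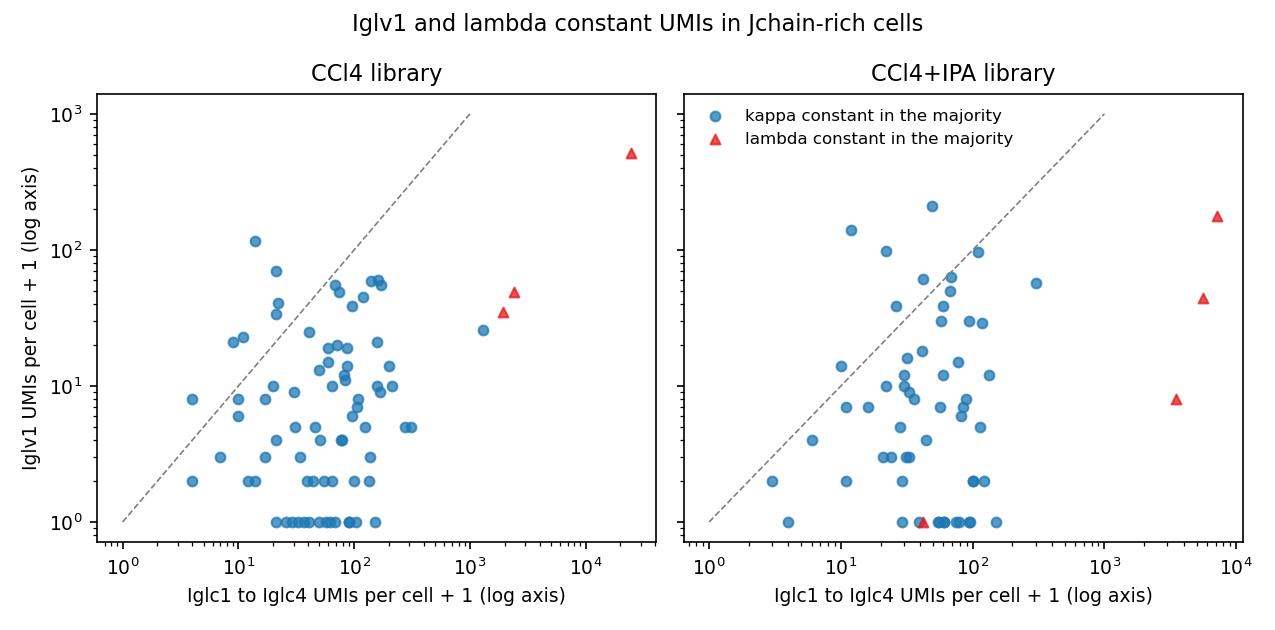
Iglv1 UMIs per cell against the summed UMIs of Iglc1 to Iglc4, each with 1 added and on log axes, for the 77 Jchain-rich cells of the CCl4 library (left) and the 60 of the CCl4+IPA library (right). Blue circles are cells with mostly kappa constant UMIs, red triangles cells with mostly lambda, and the dashed line marks equal counts. The kappa cells highest in Iglv1 reach 116 and 211 UMIs with 13 and 48 Iglc UMIs, and 7 and 6 kappa cells lie above the line.

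The kappa cells with Iglv1 included those that shared a V gene pair. The 5 cells with Igkv3-2 and Ighv8-5 held 6, 11, 29, 62 and 138 Iglv1 UMIs, and the 4 with Igkv6-15 and Ighv1-52 held 20, 22, 25 and 40. The 3 cells with Igkv10-96 and Ighv1-82 held 0, 7 and 11. Iglv1 levels thus varied widely among cells with the same pair. Of these Igkv6-15 cells, the one with 25 Iglv1 UMIs also held 1310 Iglc UMIs beside 1889 of Igkc. In T cells an Iglv1 UMI was held by 4 of 2116 and 2 of 2425 cells. The source of Iglv1 UMIs in kappa cells was not tested.

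Other genes of the light chain pathway were measured from lists, counted as past 1.5-fold between libraries with at least 50 UMIs. In Jchain-low B cells all 5 light chain constant genes lay within 1.5-fold, from 0.72 for Iglc4 to 1.00 for Igkc, while of 7 measured heavy chain constant genes 4 were higher and 1, Ighg2c, was lower at 0.40 in the CCl4+IPA library, beside 13.2% higher and 2.79% lower of all genes measured in these cells. The 4 were Igha, Ighg1, Ighg2b and Ighg3. All 10 measured transcription factors that act on immunoglobulin loci, among them Pou2af1 (a coactivator at V gene promoters, ratio 1.19), Pax5 (1.35) and Irf4 (1.31), lay within 1.5-fold. Igha UMIs were found in 19.0% and 29.9% of Jchain-low B cells but also in 19.1% and 32.9% of T cells, so Igha there was at the level of background. None of 9 J segment genes reached 50 UMIs, 7 had no UMI in these cells, and none of Rag1, Rag2 and Dntt, which act in V segment joining, reached 50.

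In Jchain-rich cells 9 of 10 genes of antibody secretion lay within 1.5-fold and 1, Xbp1 (a regulator of the secretory pathway, 1.51), was higher, beside 9.96% higher and 11.7% lower of all 4036 genes measured there. Irf4, which drives plasma cell formation, had a ratio of 0.99. Iglc1 was lower at 0.073 and Iglc2 higher at 7.02 in the CCl4+IPA library, and 1 cell of the CCl4 library held 24521 of its 35561 Iglc UMIs. In the CCl4+IPA library 3 cells with over 80% Iglc held 15189 Iglc2 UMIs, and the 56 cells with 50% Iglc or less held 1427. Both ratios thus rest on few cells. NK cell markers summed to 23.6 and 170.5 CPM in Jchain-rich cells, of which Gzma gave 23.6 and 126.3 CPM, and T cell markers to 50.1 and 84.2 CPM. Their part in the V gene values was not tested.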

How the data were processed

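Each of the 2 libraries was deposited as raw UMI counts. Per the file headers the software was Cell Ranger 7.1.0, and mm9 is the build named in the submitters' processing notes. The annotation release and the cell calling settings are not given in the sources used here, and no gene coordinates are printed. All 4 non-count files hold barcodes or gene names, and 0 per-sample columns were left unused. Sequences come from GENCODE M21 (GRCm38) transcripts, in which all 163 Igkv and Iglv identifiers were found.

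Of 10427 and 10471 barcodes, 10294 and 10459 had at least 500 UMIs, 300 genes and at most 20% mitochondrial UMIs. Scrublet (in scanpy 1.11.5) then removed 278 and 331 predicted doublets. Analysed cells held 42891409 and 35902750 UMIs. T cells had at least 3 UMIs of Cd3d, Cd3e and Cd3g and none of Cd79a, Cd79b, Ms4a1 and Jchain. Shares have Clopper-Pearson intervals, levels exact Poisson intervals and ratios conditional binomial intervals. A gene counted as past 1.5-fold needed at least 50 UMIs over both libraries. The assignment of leading genes, the ratio interval and the thinning were tested on simulated data. Simulated cells held 1 V gene each with little background, so assignment was not tested for cells with several V genes, such as most Jchain-rich cells.

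Named B cell members were the 15 leading most assigned cells, and named plasma cell members the 10 with most V UMIs and the leading gene of each library. Every Iglv member and the genes beside the limit of 20 UMIs were also named. Genes of the Jchain-rich cells, gene pairs and single cells were chosen after their values were seen. The members, lists and rules were chosen with earlier results of these data known. Python 3.11.15, numpy 2.4.6, scipy 1.17.1, pandas 2.3.3 and matplotlib 3.10.9 were used.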

Additional observations from a re-analysis of the deposited data

How the results depend on the processing

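Of 117 alternative values for 20 results, 84 stayed within the intervals or limits of the reported value and 33 moved. Each library's share was scored alone, so this count does not register a turned order between libraries. The order turned for Iglv-led B cells, 9.50% and 18.5% as reported, under the stricter leading gene, and for the Iglv1 share of plasma cells, 33.5% and 53.2% as reported, with each cell counted once. Alternatives on Jchain-rich cells, on Mzb1, on the locus of the constant region, on Iglc over 80%, on the level per constant UMI and on cells with any V UMI were added after seeing the data. With a leading gene of at least 5 UMIs and 90%, Iglv-led cells made up 5.88% and 0% of 17 and 7 assigned B cells, the 5 members ranked over both libraries, a choice that favours the CCl4 library, 29.4% and 14.3%, and the inverse Simpson number was 11.6 and 5.44. With 1 UMI and no tie, Iglv led 20.0% of cells of the CCl4 library and the 5 members 23.7%, and counting cells with any V UMI gave the 5 members 25.6%. Cells with over 80% Iglc were 4.70% and 4.01%.

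The B cell ratio of V levels was 0.811 over all deposited barcodes, 0.812 with Scrublet calls kept, 0.704 with plasma cells kept among B cells, 0.788 over UMIs outside immunoglobulin, mitochondrial and ribosomal RNA genes, 0.546 without Jchain-rich cells and 0.587 per light chain constant UMI. In plasma cells it was 0.885 per light chain constant UMI. With at least 20 Jchain and 3 Mzb1 UMIs required, only 4 plasma cells with V UMIs, 866 in sum, were left in the CCl4 library. Their Iglv1 share was 61.5%, with 518 Iglv1 UMIs in 1 cell, and their inverse Simpson number was 2.67. The CCl4+IPA library had no such cell and gave no value. The Iglv1 share of plasma cells was 14.3% and 10.0% with each cell counted once, and 15.4% and 31.4% without the cell with most V UMIs. It was 25.2% and 42.2% with Mzb1 not required, and 7.14% and 10.0% by leading gene within the locus of the constant region. Without thinning, 28.7% and 15.6% of B cells held a V UMI, and without Jchain-rich cells the thinned share of the CCl4+IPA library was 5.74%. In B cells without Fcer2a and with an innate-like marker it was 9.78% and 2.30% without Jchain-rich cells. The cause of these moves was not tested. No paired analysis was possible because each group had 1 library, and for the same reason no replicate could be left out.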
